A study of Mus musculus with 2 samples.

Results

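Kera-low stromal cells are fibroblasts of the mouse anterior eye that hold the matrix transcripts of the corneal stroma but little or no Kera, the keratocan transcript that marks corneal keratocytes. They were found in both libraries of a single-cell study of cornea and limbus, 343 cells in the library labelled Pax6 heterozygous and 89 cells in the wild-type library, 432 of the 19696 cells that passed quality limits. The members were chosen by measured values. Per 10000 unique molecular identifiers (UMIs) of a cell, Dcn, Lum and Kera together had to reach 50, Kera had to stay under 10, the basal keratins Krt5, Krt14 and Krt15 together under 30, and the mural cell genes Rgs5 and Myh11 together under 10. Cells that passed the same limits with Kera at 10 or more are called Kera-high cells here, 565 in the heterozygous-labelled library and 567 in the wild-type library, and each comparison of the classes was made within a library.

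The heterozygous-labelled library was made from mice of genotype Pax6 +/-, and the other library from wild-type mice. Pax6 encodes a transcription factor that the eye needs during development and that the corneal epithelium keeps expressing, and the comparison of genotypes addresses what the loss of 1 copy does in cornea and limbus. The series description names 2 mice per genotype, each genotype has 1 library, and age, strain, sex and the kind of Pax6 allele were not given. Lens, retina, iris, trabecular meshwork and most of the conjunctiva were dissected away, and the remaining tissue was dissociated with liberase at 0.7 mg/mL and then with 0.25% trypsin, so the position of a cell in cornea, limbus or sclera was not measured. With 1 library per genotype there was no replicate and no test. Higher and lower describe these libraries only, and each interval covers counting error only.

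The corneal stroma is a sheet of tightly spaced collagen fibrils kept by keratocytes, which secrete small leucine-rich proteoglycans such as keratocan, lumican and decorin. At the limbus the cornea passes into the sclera and the conjunctiva, and fibroblasts there lie beside vessels, nerves and the epithelial stem cells of the cornea. Stromal cells of the limbus are known to signal to these stem cells through Wnt, BMP and other growth factor pathways.

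The heterozygous-labelled library held 131567589 UMIs in 10574 barcodes and the wild-type library 124540296 UMIs in 11354 barcodes, of which 9542 and 10154 were kept. Kera-low cells had medians of 11956 UMIs and 3463 genes in the heterozygous-labelled library and of 5936 UMIs and 2474 genes in the wild-type library. Kera-high cells were deeper, with medians of 16311 and 9746 UMIs. Pax6 went against the label in epithelial cells, taken as cells with at least 100 UMIs of Krt5, Krt14 and Krt15 per 10000, where it stood at 699 CPM (the class's UMIs of a gene, scaled per 1e6 UMIs of the class) in the heterozygous-labelled library and at 248 CPM in the wild-type library. In the same cells Krt12, a keratin gene that the Pax6 protein is known to activate, stood at 1146 CPM in the heterozygous-labelled and 35257 CPM in the wild-type library. The limit took 5208 of 9542 kept heterozygous-labelled cells and 1985 of 10154 kept wild-type cells. Epithelial cells with less of these basal keratins are not in these values. In Kera-low cells Pax6 stood at 6.42 and 9.87 CPM and in Kera-high cells at 9.78 and 19.2 CPM. The libraries also differed in sex-linked transcripts. Of the heterozygous-labelled Kera-low cells 84 held Xist and no Y-linked UMI, 205 held Y-linked UMIs and no Xist, 13 held both and 41 neither, whereas 79 wild-type Kera-low cells held Xist, none held Y-linked UMIs alone or with Xist, and 10 held neither. The 2 libraries shared 40 barcodes, 1 of them on a Kera-low cell in both. Gm42418, a transcript that collects ribosomal RNA reads, stood at 16456 CPM in heterozygous-labelled and 74911 CPM in wild-type Kera-low cells, and at 14740 and 55133 CPM in Kera-high cells. The part of genotype, sex and library in any difference between the libraries cannot be told apart.

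Kera-low cells made up a larger share of the stroma in the heterozygous-labelled library. There they were 37.8% of 908 stromal cells (exact binomial 95% interval 34.6 to 41.0) and 3.59% of kept cells (3.23 to 3.99). In the wild-type library they were 13.6% of 656 stromal cells (11 to 16.4) and 0.877% of kept cells (0.704 to 1.08). Other cells of the tissue differed in number as well, with 505 mural, 440 vessel and 216 Schwann cells in the heterozygous-labelled library, against 55, 83 and 61 in the wild-type library, and the part of this difference in cell makeup was not tested. Within the heterozygous-labelled library Kera-low cells were 46.4% of 181 stromal cells with Xist alone and 34.0% of 603 with Y-linked UMIs alone. Of kept cells the order was reversed, at 1.91% of 4409 cells with Xist alone and 5.45% of 3759 with Y-linked UMIs alone. Most members lay far from the limit, since 250 heterozygous-labelled and 74 wild-type Kera-low cells had no Kera UMI. The range from 8 to 10 Kera UMIs per 10000 held 13 and 3 cells, and the range from 10 to 12 held 5 and 3 cells of the Kera-high class. A Kera UMI was found in 27.1% of heterozygous-labelled and 16.9% of wild-type Kera-low cells, against 10.1% and 6.40% of epithelial cells, which do not make keratocan.

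The label of these cells rests on Sfrp2, Mmp3, Penk and Igfbp6, and all 4 were more abundant in Kera-low than in Kera-high cells of both libraries. Sfrp2 (ENSMUSG00000027996, GRCm38 chromosome 3, 83766321 to 83774316, plus strand) encodes a secreted frizzled-related protein that modulates Wnt signals. Mmp3 (ENSMUSG00000043613, chromosome 9, 7445822 to 7455975, plus strand) encodes stromelysin-1, a protease that cleaves proteoglycans and activates other proteases. Penk (ENSMUSG00000045573, chromosome 4, 4133531 to 4138819, minus strand) encodes the precursor of the enkephalin opioid peptides. Igfbp6 (ENSMUSG00000023046, chromosome 15, 102144362 to 102149511, plus strand) encodes a binding protein with a preference for insulin-like growth factor 2. The 250 bases before the annotated starts of Mmp3 and Sfrp2, taken from the RefSeq promoter table of GRCm38.p6, are shown because these markers have upstream regions of opposite make-up. Capitals mark TGAGTCA, the classic AP-1 site, and TATAAA, the TATA box, each searched on both strands with no overlap between them.
Mmp3, chr9:7445572-7445821, plus strand: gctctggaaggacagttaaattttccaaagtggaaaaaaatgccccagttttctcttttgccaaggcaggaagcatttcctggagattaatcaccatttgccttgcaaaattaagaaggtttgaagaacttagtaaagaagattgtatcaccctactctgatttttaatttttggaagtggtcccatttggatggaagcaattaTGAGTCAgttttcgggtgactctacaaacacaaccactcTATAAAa
Sfrp2, chr3:83766071-83766320, plus strand: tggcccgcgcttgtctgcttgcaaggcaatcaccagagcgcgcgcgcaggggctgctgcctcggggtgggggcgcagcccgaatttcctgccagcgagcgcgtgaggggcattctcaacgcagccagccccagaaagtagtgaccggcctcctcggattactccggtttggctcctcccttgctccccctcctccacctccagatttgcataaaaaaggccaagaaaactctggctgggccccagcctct
The Mmp3 region had 37.6% G and C and 1 CpG, with TGAGTCA 46 bases and TATAAA 7 bases before the annotated start. The Sfrp2 region had 63.6% G and C and 16 CpGs, and neither motif is in these letters. Over the 32851 promoters of the table, each cut to its first 250 bases, 4.46% held TGAGTCA and 12.37% held TATAAA. A match of letters describes the sequence and no binding was measured. Of the label markers 3 were in the table.

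The values of the label markers chose the name of the cells, so they are given as a description. Mmp3 stood at 2654 CPM in Kera-low and 112 CPM in Kera-high cells of the heterozygous-labelled library, a ratio of 23.7 (95% interval 22.2 to 25.3). In the wild-type library it measured 4895 against 26.4 CPM, a ratio of 186 (156 to 222). Penk stood at 1374 and 33.5 CPM in heterozygous-labelled cells, a ratio of 41.1 (36.5 to 46.4). In wild-type cells it measured 470 against 0.379 CPM, a ratio of 1238 (339 to 10280) that rests on 2 UMIs in the Kera-high class. Both genes were thus higher in heterozygous-labelled than in wild-type Kera-high cells. Sfrp2 stood at 788 and 78.7 CPM in heterozygous-labelled cells, a ratio of 10.0 (9.22 to 10.9). In wild-type cells it measured 434 against 19.4 CPM, a ratio of 22.4 (17.7 to 28.7), but 1 Kera-low cell gave 40.5% of those UMIs. Igfbp6 stood at 227 and 86.0 CPM in heterozygous-labelled cells, a ratio of 2.64 (2.39 to 2.91), and at 1202 and 29.2 CPM in wild-type cells, a ratio of 41.1 (34.4 to 49.4). Without the highest cell of each class the wild-type log2 ratio was 3.90 in place of 4.49 for Sfrp2 and 10.95 in place of 10.27 for Penk, and the heterozygous-labelled log2 ratio of Penk was 5.98 in place of 5.36.

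A minority of Kera-low cells held all of these markers. Mmp3 was found in 73.5% of heterozygous-labelled and 74.2% of wild-type Kera-low cells, and Penk in 70.0% and 47.2%. Sfrp2 was found in 36.7% and 25.8% of Kera-low cells, and Igfbp6 in 31.8% and 55.1%. Kera-high cells held them less often, with Mmp3 in 28.5% of heterozygous-labelled and 7.94% of wild-type cells and Penk in 12.6% and 0.353%. Epithelial cells, which should lack all 4, showed Mmp3 in 4.44% and 0.453% and Penk in 1.40% and 0.101%, at median depths of 15147 and 15486 UMIs. When each cell was thinned to 2000 UMIs, which kept 320 heterozygous-labelled and 80 wild-type Kera-low cells and left out 23 and 9, Mmp3 was found in 65.3% and 70.0%, Penk in 49.4% and 35.0%, Sfrp2 in 21.9% and 17.5% and Igfbp6 in 18.8% and 42.5%. All 4 markers were detected in 51 of 343 heterozygous-labelled and 12 of 89 wild-type Kera-low cells, and none of them in 39 and 9. Mmp3 and Penk occurred together in 208 heterozygous-labelled cells, whereas Sfrp2 and Igfbp6 occurred together in 61 and apart in 113 (65 with Sfrp2 and 48 with Igfbp6).

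**Figure D1:**
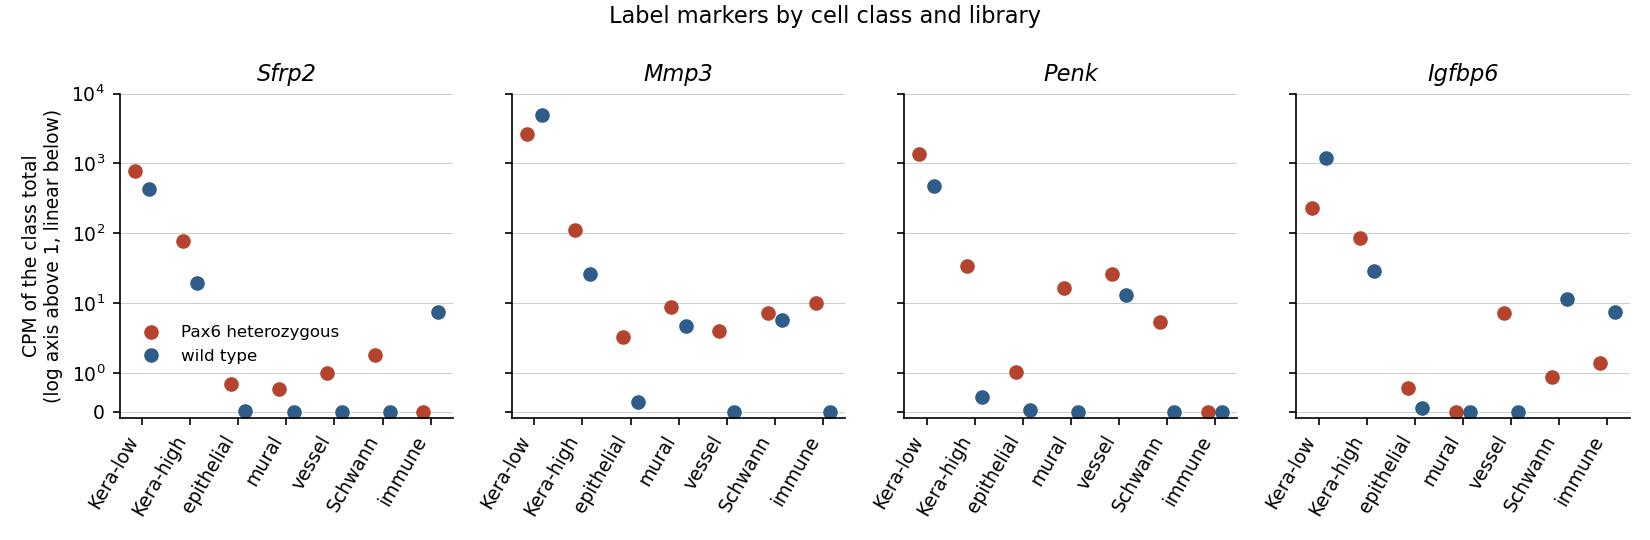
Level of each label marker, in CPM of the class total on an axis that is logarithmic above 1 and linear below, in 7 cell classes of the heterozygous-labelled (left point of each pair) and wild-type (right point) library. Each point is 1 class of 1 library with no error bar, and in each panel the Kera-low points lie above the Kera-high points, with Mmp3 at 2654 and 4895 CPM in Kera-low cells.

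Mmp3, and Penk in the heterozygous-labelled library, were mostly lower in cells with more Kera, on both sides of the limit between the classes. In heterozygous-labelled cells Mmp3 stood at 3088 CPM where Kera was 0, at 2182 CPM in cells with up to 5 Kera UMIs per 10000, and at 492 CPM from 5 to 10. Across the limit it stood at 615 CPM from 10 to 20, 157 CPM from 20 to 50, 63.9 CPM from 50 to 100 and 24.0 CPM at 100 and over. The order was thus broken only between the bins beside the limit. In wild-type cells Mmp3 stood at 5096, 4463 and 651 CPM in the 3 Kera-low bins, of 74, 8 and 7 cells, and at 434, 196, 16.8 and 7.34 CPM in the 4 Kera-high bins. Penk stood at 1655, 912 and 343 CPM in the Kera-low bins of the heterozygous-labelled library and at 97.1, 100.2, 8.12 and 4.23 CPM in its Kera-high bins. Of the Penk UMIs of that Kera-high class 42.6% came from 1 cell. In wild-type cells Penk stood at 497, 362 and 65.1 CPM in the Kera-low bins, the last from 1 UMI, and in the Kera-high bins at 0, 3.56, 0.454 and 0 CPM. Cells next to the limit thus lay between the outer bins in Mmp3 in both libraries, whereas Penk had no UMI in the 15 wild-type cells from 10 to 20. The 7 wild-type cells from 5 to 10 were shallow, with a median of 1339 UMIs. Sfrp2 and Igfbp6 did not follow such an order. In heterozygous-labelled cells Sfrp2 stood at 929, 292 and 905 CPM in the Kera-low bins and at 346 CPM from 10 to 20. Igfbp6 in the same bins stood at 242, 124, 357 and 359 CPM, and in wild-type cells at 1007, 3013, 586 and 659 CPM. At 100 and over both stood at 9.16 CPM in heterozygous-labelled cells. Angptl7, a secreted factor that keeps the corneal stroma free of vessels, stood at 3369 CPM where Kera was 0 and 10852 CPM at 100 and over in the heterozygous-labelled library, and at 2014 and 6639 CPM in the wild-type library.

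**Figure D2:**
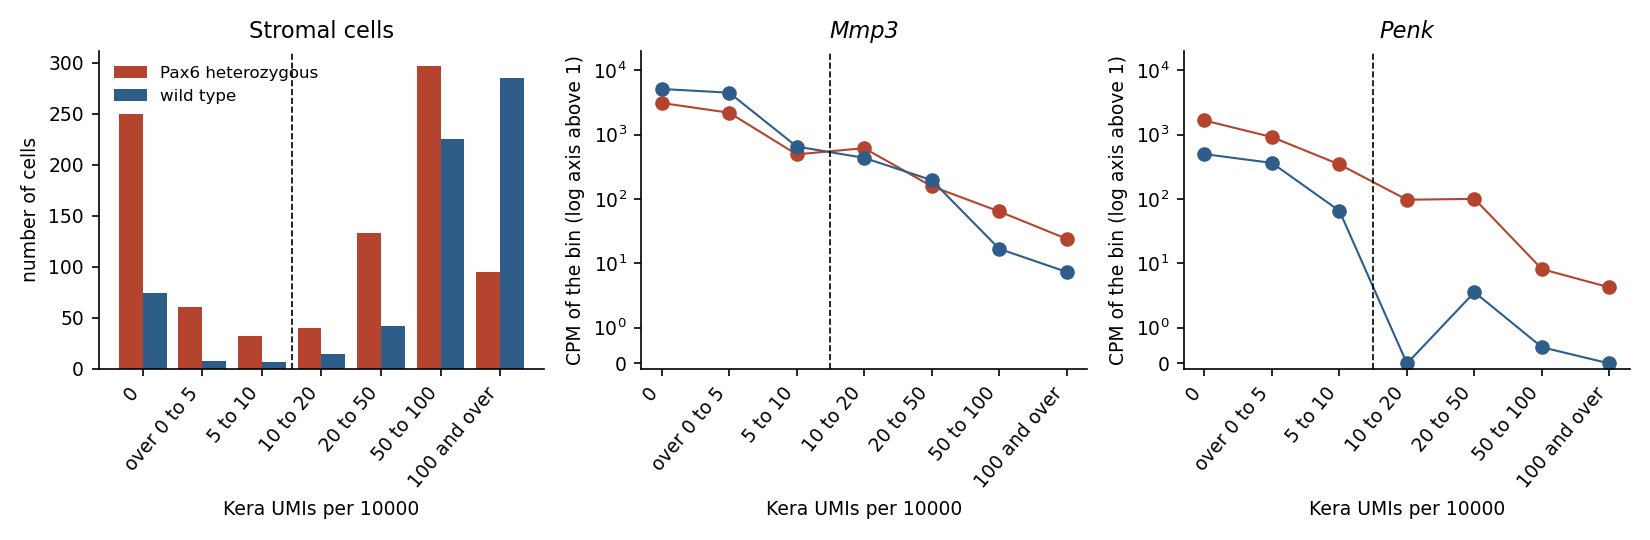
Number of stromal cells (left) and level of Mmp3 (middle) and Penk (right), in CPM of the bin on an axis that is logarithmic above 1, against the Kera UMIs per 10000 of the cell in 7 bins, for the heterozygous-labelled and wild-type libraries. The dashed line is the limit of 10 that divides Kera-low from Kera-high cells, and in the heterozygous-labelled library Mmp3 stands at 3088 CPM in the first and 24.0 CPM in the last bin.

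Some defining markers of other cell types were at or near 0 in Kera-low cells. Ptprc of leukocytes, Sox10 of Schwann cells and the pigment genes Dct and Tyrp1 were at 0 in the Kera-low cells of both libraries. Other markers of such cells were present. Macrophage and dendritic markers summed to 47.5 and 15.8 CPM in Kera-low cells, against 64.4 and 11.6 CPM in Kera-high cells. Melanocyte markers summed to 46.2 and 61.2 CPM, against 21.97 and 33.01 CPM. Among them Mitf was over 2-fold higher in heterozygous-labelled Kera-low cells. Lymphatic endothelial markers summed to 34.9 and 7.89 CPM, against 8.05 and 2.85 CPM. The 7 corneal endothelium markers summed to 1178 and 732 CPM in Kera-low cells and to 1421 and 1990 CPM in Kera-high cells. The 8 mural markers outside the rule summed to 23.4 CPM in heterozygous-labelled and 29.6 CPM in wild-type Kera-low cells, against 10.2 and 13.3 CPM in Kera-high cells. The 10 blood endothelial markers summed to 58.0 and 29.6 CPM in Kera-low cells, against 55.2 and 233 CPM in Kera-high cells, the last almost entirely Kdr. The 10 Schwann markers summed to 571 and 651 CPM in Kera-low cells and 402 and 477 CPM in Kera-high cells, mostly from Pmp22 and Ncam1, which fibroblasts also express. The 8 trabecular meshwork and iris markers summed to 733 CPM in Kera-low and 448 CPM in Kera-high cells of the heterozygous-labelled library, where 2 of 4 measured genes were higher, and to 420 and 514 CPM in the wild-type library, where 3 of 4 were. Myoc, a marker of the trabecular meshwork, stood at 91.4 CPM in Kera-low and 5.64 CPM in Kera-high cells of the heterozygous-labelled library, and 1 cell gave 31.2% of the Kera-low UMIs. In the wild-type library Myoc stood at 57.2 and 1.90 CPM, with 24.1% of the Kera-low UMIs from 1 cell and a log2 ratio of 5.52 in place of 4.91 without the highest cell of each class. Epithelial markers outside the rule summed to 48.0 CPM in Kera-low and 59.2 CPM in Kera-high cells of the heterozygous-labelled library, but to 1450 and 1329 CPM in the wild-type library. The part of these transcripts in the results below was not tested.

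A gene was measured if it reached 20 CPM in either class, and was called higher or lower from a difference of 2-fold. In the heterozygous-labelled library 442 of 6709 measured genes (6.59%) were called higher in Kera-low cells and 213 (3.17%) lower, and the log2 ratio of all genes had a median of 0.04. In the wild-type library 683 of 7250 (9.42%) were higher and 503 (6.94%) lower, with a median of 0.03. In both libraries at once 253 of 6290 genes (4.02%) were higher, 89 (1.41%) lower and 11 (0.175%) went opposite ways. The split depends on the scaling. With edgeR TMM factors 350 were higher and 324 lower in the heterozygous-labelled library (51.9% of the called genes higher, against 67.5%), and 531 and 635 in the wild-type library (45.5%, against 57.6%). The Kera level and the genes of the rule chose the classes, and genes that vary with Kera are part of that choice, so these counts and all values below describe the classes and test nothing. The shares of all genes given here are those to set beside the count of each list below. In each list a gene can reach 20 CPM through Kera-low cells alone, which shapes the share called higher.

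Besides Mmp3 and Penk, the genes that stood highest in Kera-low cells of both libraries included matrix, retinoid and chemokine genes. Tnn, which encodes the matrix glycoprotein tenascin-N, stood at 305 CPM in Kera-low and 2.76 CPM in Kera-high cells of the heterozygous-labelled library, a ratio of 110 (73.9 to 173). In the wild-type library it measured 195 against 0.379 CPM, a ratio of 515 (139 to 4310), with 2 UMIs in the Kera-high class. Tnn UMIs were found in 31.2% of heterozygous-labelled and 20.2% of wild-type Kera-low cells. Aldh1a2, an enzyme that makes retinoic acid, stood at 64.7 and 1.15 CPM in heterozygous-labelled cells, a ratio of 56.2 (30.1 to 119), and at 110 and 0.379 CPM in wild-type cells, a ratio of 291 (76.9 to 2464). Gfra2, a receptor for neurturin, stood at 62.4 and 1.84 CPM in heterozygous-labelled cells, a ratio of 33.9 (20.5 to 60.3), and at 105 and 0.379 CPM in wild-type cells, a ratio of 276 (72.6 to 2335). Stc1, a secreted glycoprotein that inhibits the pappalysin proteases, stood at 266 and 9.32 CPM in heterozygous-labelled cells, a ratio of 28.6 (22.8 to 36.3), and at 466 and 2.85 CPM in wild-type cells, a ratio of 164 (97.2 to 297). Fbln1, a fibulin of elastic fibres and basement membranes, stood at 332 and 23.6 CPM in heterozygous-labelled cells, a ratio of 14.1 (12.1 to 16.4), and at 505 and 7.21 CPM in wild-type cells, a ratio of 70.1 (49.7 to 101). Fbln1 was found in 67.1% of heterozygous-labelled and 69.7% of wild-type Kera-low cells, so its level did not rest on a few cells. Fst, which binds and blocks activin, stood at 77.3 and 5.87 CPM in heterozygous-labelled and 53.3 and 1.33 CPM in wild-type cells. Plagl1, an imprinted zinc finger factor, stood at 52.1 and 5.29 CPM in heterozygous-labelled and 90.8 and 1.90 CPM in wild-type cells, and Slc5a3, the myo-inositol transporter, at 246 against 18.6 CPM and at 306 against 33.2 CPM. Without the highest cell of each class the log2 ratio of Tnn was 8.14 in place of 6.79 in the heterozygous-labelled library and 9.75 in place of 9.01 in the wild-type library, and the wild-type log2 ratio was 9.02 in place of 8.19 for Aldh1a2 and 8.93 in place of 8.11 for Gfra2.

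The genes that stood lowest in Kera-low cells included receptors, secreted proteins and enzymes. Ednrb, a receptor for endothelins, stood at 6.42 CPM in Kera-low and 93.8 CPM in Kera-high cells of the heterozygous-labelled library, a ratio of 0.0684 (0.0440 to 0.102). In wild-type Kera-low cells it was 1 UMI, 1.97 CPM, against 89.2 CPM in Kera-high cells, a ratio of 0.0221 (0.000559 to 0.124). Mamdc2, a secreted proteoglycan, stood at 5.90 and 52.6 CPM in heterozygous-labelled and 21.7 and 327 CPM in wild-type cells. Pcsk2, a convertase that processes prohormones, stood at 4.36 and 53.8 CPM in heterozygous-labelled and 25.7 and 202 CPM in wild-type cells. Penk and Pcsk2, a peptide precursor and a convertase of the kind that cuts such precursors, were thus divided between the classes, Penk higher and Pcsk2 lower in Kera-low cells. Cd40, a receptor of the tumour necrosis factor family, stood at 21.3 and 126 CPM in heterozygous-labelled and 5.92 and 99.4 CPM in wild-type cells. Erbb4, a receptor for neuregulins, stood at 114 and 465 CPM in heterozygous-labelled and 84.8 and 505 CPM in wild-type cells. Col13a1, a transmembrane collagen, stood at 48.3 and 188 CPM in heterozygous-labelled and 41.4 and 187 CPM in wild-type cells, close to equal in the 2 libraries. Fam169a, Ass1, Jph4, Cpne7, Arsj and Fjx1 completed the 12 lowest, with heterozygous-labelled ratios of 0.196, 0.256, 0.269, 0.279, 0.250 and 0.308. Without the highest cell of each class the wild-type log2 ratio was -3.88 in place of -5.50 for Ednrb, -4.55 in place of -3.92 for Mamdc2, -5.63 in place of -4.07 for Cd40, -3.66 in place of -2.57 for Erbb4, -4.29 in place of -3.31 for Ass1, -2.62 in place of -1.76 for Arsj and -3.88 in place of -3.16 for Fjx1.

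**Figure D3:**
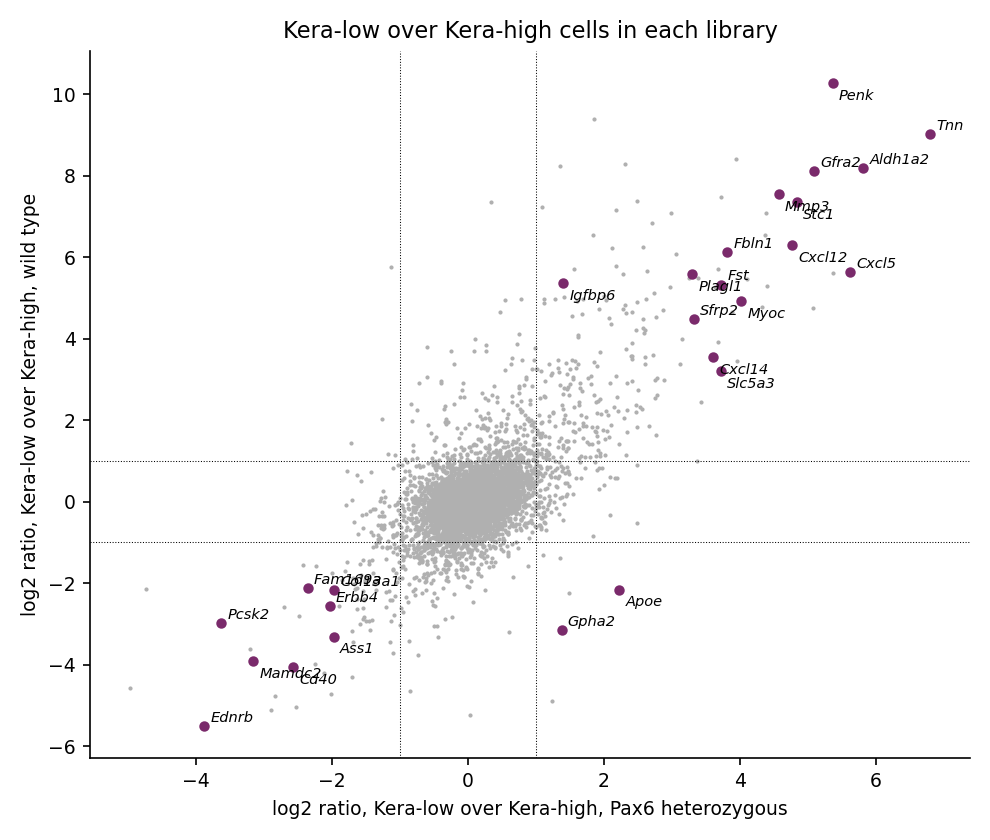
Log2 ratio of Kera-low over Kera-high cells in the heterozygous-labelled library (horizontal axis) and in the wild-type library (vertical axis), 1 grey point per gene measured in both libraries, with named genes in purple and dotted lines at 2-fold. Tnn, at 6.79 and 9.01, lies at the upper right, Ednrb at the lower left, and Apoe, at 2.22 and -2.16, at the lower right.

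Most measured chemokine and cytokine genes were higher in Kera-low cells. Of the 28 genes of the list in the data, 17 in the heterozygous-labelled and 13 in the wild-type library reached 20 CPM in either class. Some, such as Cxcl12, reached it through Kera-low cells alone. The limit thus shapes the share of higher genes, which is given as a description. In the heterozygous-labelled library 10 of 17 measured genes were higher and 1 lower, and the log2 ratios had a median of 2.40, and in the wild-type library 12 of 13 were higher and none lower, with a median of 3.55. The background was 6.59% and 9.42% of all genes higher. Cxcl12, the ligand that holds CXCR4-bearing cells in place, stood at 178 CPM in Kera-low and 6.56 CPM in Kera-high cells of the heterozygous-labelled library, a ratio of 27.1 (20.7 to 36.2), and at 239 and 3.04 CPM in the wild-type library, a ratio of 78.7 (46.5 to 142). Cxcl14, a chemokine of barrier tissues, stood at 220 and 18.2 CPM in heterozygous-labelled and 180 and 15.4 CPM in wild-type cells, with ratios of 12.1 and 11.7. Cxcl1, a neutrophil attractant, stood at 319 and 60.5 CPM in heterozygous-labelled and 580 and 48.8 CPM in wild-type cells. Il1r1, the receptor for interleukin 1, stood at 104 and 27.8 CPM in heterozygous-labelled and 67.1 and 6.64 CPM in wild-type cells. Several members rested on single cells. Of the Cxcl5 UMIs in heterozygous-labelled Kera-low cells 27.4% came from 1 cell, and of the wild-type Ccl2 and Ccl7 UMIs 63.4% and 62.7%. Without the highest cell of each class the wild-type log2 ratio was 2.78 in place of 3.98 for Ccl2, 3.54 in place of 4.14 for Ccl7 and 6.92 in place of 5.63 for Cxcl5, which in heterozygous-labelled cells was 7.32 in place of 5.61.

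Insulin-like growth factors and several of their regulators were higher in Kera-low cells, and no gene of the list was lower. Of the IGF axis 6 of 11 measured genes were higher in Kera-low cells of the heterozygous-labelled library (median log2 ratio 1.40). In the wild-type library 7 of 12 were higher (2.78). Of all genes 6.59% and 9.42% were higher. Some members, such as Stc1, reached 20 CPM through Kera-low cells alone, so the limit shapes these shares and medians. The growth factor Igf1 stood at 202 CPM in Kera-low and 33.1 CPM in Kera-high cells of the heterozygous-labelled library, and at 88.8 and 7.59 CPM in the wild-type library. Igf2 stood at 89.3 and 8.28 CPM in heterozygous-labelled and 195 and 35.7 CPM in wild-type cells. Among the binding proteins Igfbp7 joined Igfbp6, at 1310 and 436 CPM in heterozygous-labelled and 1241 and 129 CPM in wild-type cells. Igfbp2 did not, at 17346 and 16059 CPM in heterozygous-labelled and 9850 and 17619 CPM in wild-type cells, nor did Igfbp4, at 1252 against 985 CPM and at 1468 against 1179 CPM. The group thus held ligands, binding proteins and the protease inhibitor Stc1, while Igfbp2 and Igfbp4 were not among the genes called higher.

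Of Wnt ligands and secreted modulators 3 of 7 measured genes were higher and 1 lower in heterozygous-labelled Kera-low cells (median log2 ratio 0.94), and 5 of 11 higher and 4 lower in wild-type cells (0.99, but -0.18 without the highest cell of each gene). Those higher in both libraries were the antagonists Sfrp1 and Sfrp2. Wif1, which binds Wnt proteins, stood at 191 CPM in Kera-low and 18.5 CPM in Kera-high cells of the heterozygous-labelled library, a ratio of 10.3 (8.69 to 12.3), and at 92.7 and 46.7 CPM in the wild-type library. Sfrp1 stood at 27.7 and 4.72 CPM in heterozygous-labelled and 69.1 and 14.4 CPM in wild-type cells. Dkk2, by contrast, stood at 466 and 487 CPM in heterozygous-labelled and 497 and 1583 CPM in wild-type cells. The ligand Wnt11 was lower, at 47.2 and 140 CPM in heterozygous-labelled and 96.7 and 335 CPM in wild-type cells, and Wnt5a stood at 606 against 548 CPM and at 489 against 1645 CPM. Among receptors and targets 6 of 13 genes were higher in heterozygous-labelled cells and 4 of 14 in wild-type cells, with none and 2 lower, among them the receptor Fzd1 (139 and 31.3 CPM, and 176 and 35.3 CPM), the co-receptor Lrp6 (137 and 61.5 CPM, and 213 and 88.6 CPM) and the feedback inhibitor Nkd2 (85.5 and 17.0 CPM, and 88.8 and 3.6 CPM).

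Small leucine-rich proteoglycans outside the rule were higher in Kera-low cells or less than 2-fold apart, whereas collagens went both ways. Of the small leucine-rich proteoglycans outside the rule, 4 of 8 measured genes were higher in heterozygous-labelled Kera-low cells and 7 of 9 in wild-type Kera-low cells, and none was lower. Aspn, asporin of tendon and periodontal tissue, stood at 378 CPM in Kera-low and 76.0 CPM in Kera-high cells of the heterozygous-labelled library, and at 296 and 0.949 CPM in the wild-type library, a ratio of 312 (131 to 975). Omd, osteomodulin, stood at 224 and 40.4 CPM in heterozygous-labelled and 357 and 19.4 CPM in wild-type cells. Podn stood at 96.8 and 13.2 CPM in heterozygous-labelled and 88.8 and 3.41 CPM in wild-type cells. Bgn, biglycan, was near equal, at 1366 and 1586 CPM in heterozygous-labelled and 1328 and 1531 CPM in wild-type cells.

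Of the collagens 7 of 24 measured genes were higher and 4 lower in heterozygous-labelled Kera-low cells, and 5 of 22 higher and 6 lower in wild-type cells. With edgeR TMM factors the heterozygous-labelled split was 5 higher and 7 lower. The fibrillar chains of type I collagen were close to level, with Col1a1 at 25509 CPM in Kera-low and 32969 CPM in Kera-high cells of the heterozygous-labelled library and at 6736 and 8569 CPM in the wild-type library. Col3a1, the fibrillar chain of compliant tissues that the clear cornea largely lacks, stood at 2211 and 827 CPM in heterozygous-labelled cells, a ratio of 2.67 (2.59 to 2.76), and at 1569 and 48.8 CPM in wild-type cells, a ratio of 32.2 (27.9 to 37.2). Col8a1, a short-chain collagen, stood at 590 and 194 CPM in heterozygous-labelled and 217 and 7.21 CPM in wild-type cells. Among the lower genes of both libraries were Col5a1, a chain of the collagen that limits fibril width, and Col6a2, a chain of the beaded filaments between fibrils. Col5a1 stood at 417 and 1216 CPM in heterozygous-labelled and 251 and 674 CPM in wild-type cells, and Col6a2 stood at 881 against 1941 CPM and at 647 against 1405 CPM. Col6a1 stood at 1734 and 3388 CPM in heterozygous-labelled and 894 and 2270 CPM in wild-type cells, lower by more than 2-fold in the wild-type library only. Col14a1, which binds the surface of fibrils, went the other way, at 301 and 185 CPM in heterozygous-labelled and 260 and 77.2 CPM in wild-type cells.

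**Figure D4:**
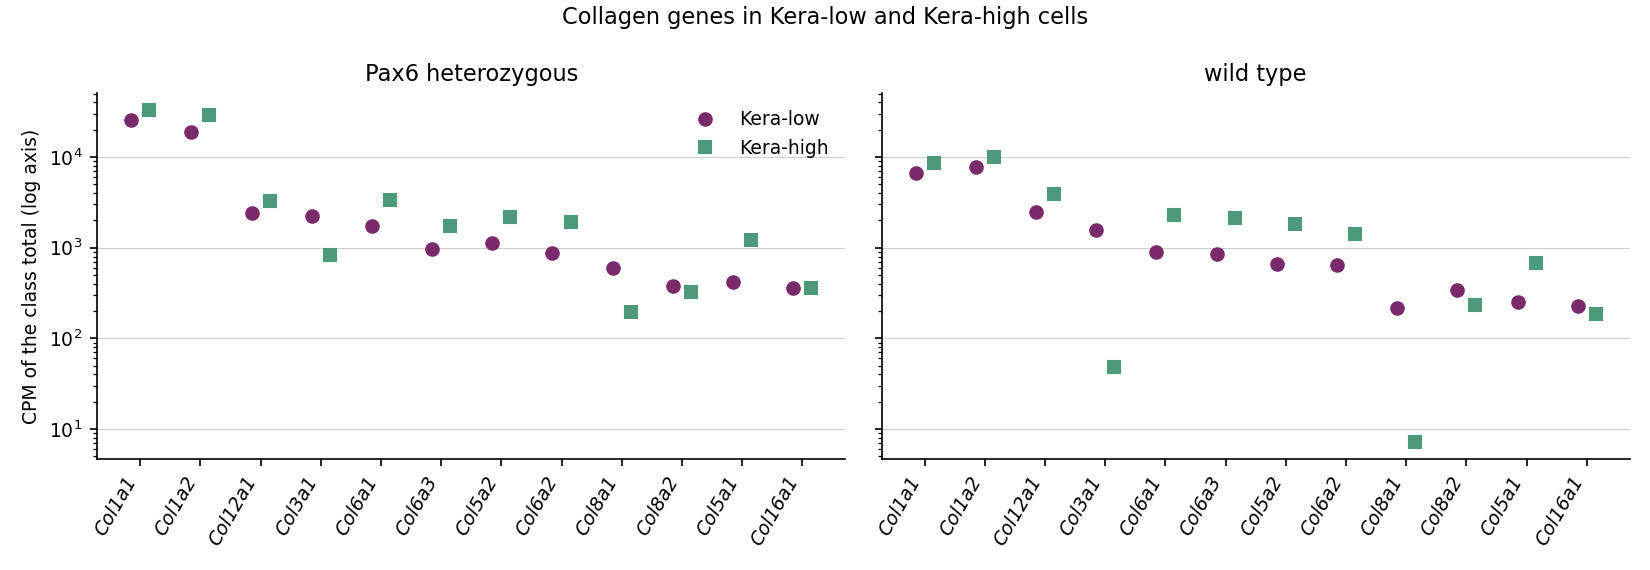
Level of the 12 collagen genes with the highest summed CPM in Kera-low cells, in CPM of the class total on a log axis, in Kera-low (circles, left) and Kera-high (squares, right) cells of the heterozygous-labelled (left panel) and wild-type (right panel) library. Each point is 1 class of 1 library, and the gap between the classes is wide for Col3a1, at 1569 and 48.8 CPM in the wild-type panel, and small for Col1a1.

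Of elastic fibre and crosslinking genes 6 of 21 were higher and 1 lower in heterozygous-labelled Kera-low cells and 8 of 20 higher in wild-type cells. Of all genes 6.59% and 9.42% were higher in the 2 libraries. Of other matrix and matricellular genes 10 of 26 were higher and 1 lower in heterozygous-labelled cells, and 17 of 28 higher and 1 lower in wild-type cells. Tnc, tenascin-C of healing and border tissue, stood at 456 CPM in Kera-low and 101 CPM in Kera-high cells of the heterozygous-labelled library, and at 217 and 1.52 CPM in the wild-type library. Ccn5, a matricellular protein of the CCN family, stood at 42.4 and 2.76 CPM in heterozygous-labelled and 191 and 0.569 CPM in wild-type cells, where the log2 ratio was 9.80 in place of 8.39 without the highest cell of each class. The 1 lower gene in both libraries was Sparcl1, at 113 against 605 CPM and at 191 against 561 CPM. Of metalloproteinases and their inhibitors 7 of 18 were higher in heterozygous-labelled cells and 9 of 17 in wild-type cells, with none lower. Besides Mmp3 they included inhibitors. Timp3, a matrix-bound inhibitor, stood at 667 and 125 CPM in heterozygous-labelled and 1928 and 170 CPM in wild-type cells, and Reck, a membrane-bound inhibitor, at 104 against 22.7 CPM and at 172 against 28.8 CPM. The gelatinase Mmp2, at 537 against 491 CPM and at 706 against 594 CPM, was near level.

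Keratocyte genes other than Kera were lower in part. Of 10 measured keratocyte genes outside the rule 5 were lower and 1 higher in heterozygous-labelled Kera-low cells, and in wild-type cells 5 of 11 were lower and 4 higher. The median log2 ratio was -0.57 and -0.46, and the wild-type median was 0.07 when the class level was the mean over cells instead of summed UMIs. Angptl7 stood at 3840 CPM in Kera-low and 8242 CPM in Kera-high cells of the heterozygous-labelled library, and at 1987 and 6310 CPM in the wild-type library. Chst5, a sulfotransferase of keratan sulfate, stood at 95 and 277 CPM in heterozygous-labelled and 41.4 and 255 CPM in wild-type cells. Aldh3a1, a corneal crystallin, stood at 1807 and 1901 CPM in heterozygous-labelled and 1537 and 3760 CPM in wild-type cells. The universal fibroblast list, with genes of adventitial and serous-lining fibroblasts of many organs, had 7 of 14 genes higher and 2 lower in heterozygous-labelled cells, and 8 of 12 higher and 2 lower in wild-type cells. Ly6a, the stem cell antigen Sca-1, stood at 128 and 29.4 CPM in heterozygous-labelled and 282 and 3.79 CPM in wild-type cells. Clec3b, tetranectin, stood at 258 and 45.9 CPM in heterozygous-labelled and 45.4 and 1.52 CPM in wild-type cells. Dpt, dermatopontin, is on that list and was lower, at 289 and 919 CPM in heterozygous-labelled and 223 and 912 CPM in wild-type cells. Of the scleral, tendon and cartilage list 1 of 8 measured genes was higher and 1 lower in heterozygous-labelled cells, and 3 of 7 higher and 1 lower in wild-type cells. Mgp, matrix Gla protein that blocks calcification, stood at 13320 and 9096 CPM in heterozygous-labelled and 3986 and 1874 CPM in wild-type cells, and Thbs4, thrombospondin 4 of tendon, at 475 against 1019 CPM and at 452 against 1422 CPM. Cilp and Cilp2, cartilage matrix genes, were the other higher ones in wild-type cells, and Cilp2 was the higher one in heterozygous-labelled cells. Neither a limbal nor a scleral position was measured.

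Transcription factors and growth factor genes gave smaller sets. Over all genes 6.59% were higher and 3.17% lower in heterozygous-labelled Kera-low cells, and 9.42% and 6.94% in wild-type ones. Of 20 measured transcription factors of the anterior segment and mesenchyme 7 were higher in heterozygous-labelled Kera-low cells and none lower, and 7 of 20 were higher and 3 lower in wild-type cells. Ebf1, an early B-cell factor that is also a fibroblast regulator, stood at 213 CPM in Kera-low and 32.1 CPM in Kera-high cells of the heterozygous-labelled library, a ratio of 6.64 (5.79 to 7.63), and at 217 and 6.26 CPM in the wild-type library, a ratio of 34.7 (23.3 to 52.8). Runx1 stood at 389 and 133 CPM in heterozygous-labelled and 438 and 52.9 CPM in wild-type cells. Tfap2b, a neural crest factor, stood at 267 and 233 CPM in heterozygous-labelled and 264 and 500 CPM in wild-type cells. Of TGF-beta and BMP genes 5 of 19 were higher and 2 lower in heterozygous-labelled cells, and 12 of 21 higher and 1 lower in wild-type cells. Nbl1, a secreted BMP antagonist, stood at 281 and 77.7 CPM in heterozygous-labelled and 424 and 39.3 CPM in wild-type cells. Of other growth factor genes 4 of 19 were higher and 1 lower in heterozygous-labelled cells, and 8 of 20 higher and 1 lower in wild-type cells. Gas6, the ligand of the TAM receptors, stood at 539 and 90.6 CPM in heterozygous-labelled and 434 and 19.5 CPM in wild-type cells, and Egfr, the receptor for epidermal growth factor, at 211 against 56.9 CPM and at 166 against 51.0 CPM. In retinoid metabolism, 3 of 10 genes were higher in heterozygous-labelled and 3 of 11 in wild-type cells, where Crabp1 and Crabp2, carriers of retinoic acid, were lower, and the higher ones held both a maker of retinoic acid, Aldh1a2, and a remover, Cyp26b1, at 154 against 37.6 CPM and at 262 against 8.54 CPM.

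Stress and interferon lists held a few called genes each, beside 6.59% of all genes higher in heterozygous-labelled and 9.42% in wild-type Kera-low cells. Of 22 immediate early and dissociation stress genes 3 were higher and 1 lower in heterozygous-labelled Kera-low cells, and 3 of 21 higher in wild-type cells, with medians of 0.62 and 0.15 (log2). Fos stood at 4546 CPM in Kera-low and 1777 CPM in Kera-high cells of the heterozygous-labelled library and at 4761 and 4440 CPM in the wild-type library. Jun stood at 1753 and 882 CPM in heterozygous-labelled and 1701 and 836 CPM in wild-type cells. The proteins of Fos and Jun bind the TGAGTCA letters shown for Mmp3, and whether they act there was not measured. Of interferon response genes 5 of 22 were higher in heterozygous-labelled cells, and 3 of 18 higher and 1 lower in wild-type cells. Of 7 and 8 measured antigen presentation genes none and 1 were higher, with B2m at 965 against 826 CPM and at 762 against 753 CPM. Of the cell cycle list 1 of 16 genes was measured, at a ratio under 2-fold in both libraries.

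The Kera-low cells were not uniform. Clustered together over both libraries on 1500 variable genes, the 432 cells gave 7 clusters, which are described by number because their genes formed them and 1 library dominated several. No correction for library was made, so differences between the libraries enter the clusters. Cluster 2, with 62 heterozygous-labelled and 9 wild-type cells, held 82.6% of all Sfrp2 UMIs of the class and 57.1% of the Penk UMIs. In it Sfrp2 stood at 4692 CPM and Penk at 5516 CPM, with Spp1, the matrix protein osteopontin, at 1088 CPM (32.3% of the heterozygous-labelled Spp1 UMIs of the class came from 1 cell) and the cartilage genes Cilp2, Comp and Chad at 394, 70.8 and 69.1 CPM. Myoc, the trabecular meshwork marker, stood at 427 CPM in cluster 2 and 36.1 CPM in the other Kera-low cells. Cluster 4, with 48 heterozygous-labelled and 13 wild-type cells, held 48.7% of the Igfbp6 UMIs and was led by Pi16. In it Pi16 stood at 595 CPM, Clec3b at 1446 CPM, Ly6a at 779 CPM, Cd34 at 545 CPM and Cxcl12 at 790 CPM. The UMIs of the label markers were thus concentrated in different clusters, Sfrp2 with Penk in one and Igfbp6 more in another. Cluster 2 also held 35.0% of the Igfbp6 UMIs and 28.1% of the Mmp3 UMIs.

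Other clusters took up the rest of the Mmp3. Cluster 1, with 54 heterozygous-labelled and 10 wild-type cells, was led by Tnn at 1344 CPM, and Mmp3 stood there at 5265 CPM. Cluster 0, with 85 heterozygous-labelled cells and 1 wild-type cell, was led by Tac1, the tachykinin precursor, and held 29.99% of the Mmp3 UMIs and 2.58% of the Sfrp2 UMIs. Cluster 3, with 63 and 2 cells, had Erbb4 at 408 CPM and Kera at 195 CPM, and 44.6% of its cells lacked Kera, against 83.6% in cluster 4 and 90.6% in cluster 1. In Erbb4, Chst5 (239 CPM) and Sfrp2 (16.8 CPM) cluster 3 lay nearer to heterozygous-labelled Kera-high than Kera-low cells. In Mgp (17822 CPM) it did not. Mmp3 was 365 CPM in cluster 3, against 279 CPM in cluster 5, 860 CPM in cluster 4 and more in clusters 0, 1, 2 and 6. Cluster 6, with 9 heterozygous-labelled and 53 wild-type cells, was led by Ryr3 and Coch and by the epithelial transcripts Krt12, Slurp1, Lypd2 and Aqp5, with Krt12 at 757 CPM. Cluster 5 held 22 and 1 cells, with Chst5 at 177 CPM, Sfrp2 at 16.1 CPM and Penk at 1072 CPM. When the resolution was lowered to 0.4 or raised to 1.0, 93.0% and 91.5% of the cells of cluster 2 stayed in 1 cluster, against 95.1% and 42.6% of cluster 4, and cluster 5 joined cluster 3 at 0.4.

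**Figure D5:**
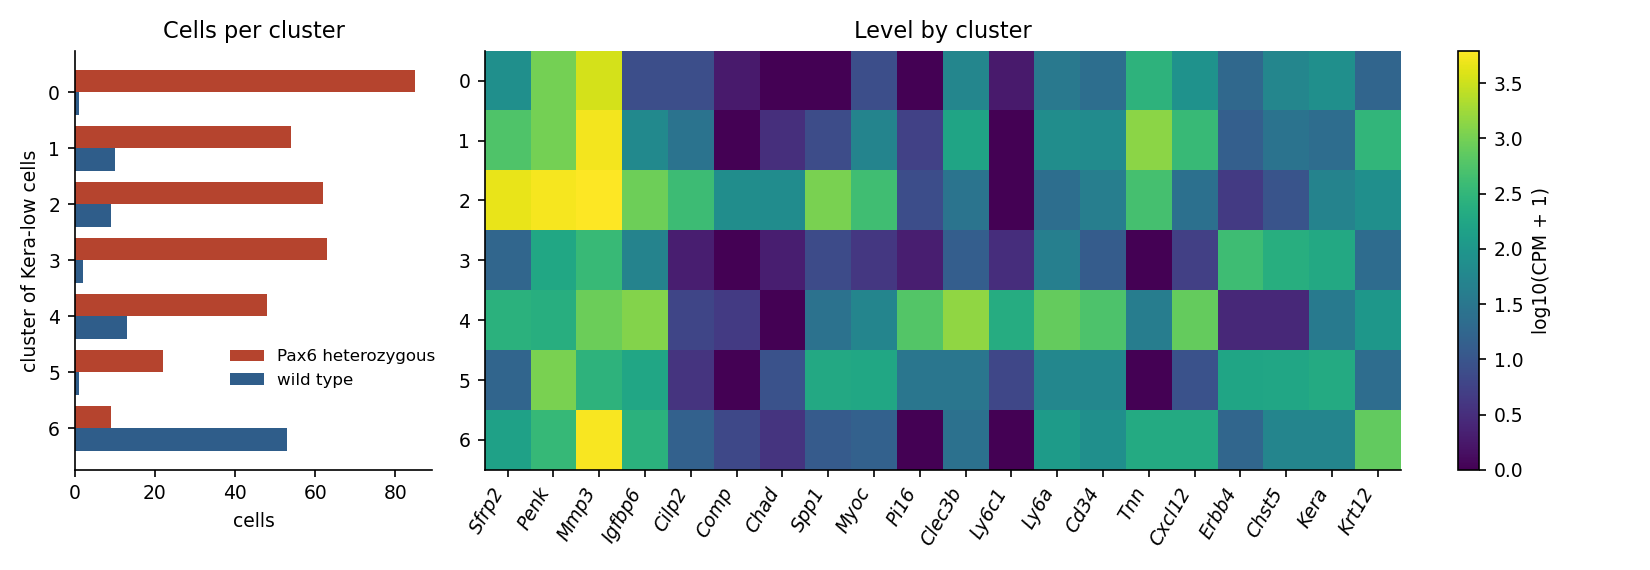
Left, number of heterozygous-labelled (upper bar) and wild-type (lower bar) Kera-low cells in each of 7 clusters. Right, level of 20 genes by cluster as the base-10 logarithm of CPM plus 1, where Sfrp2 reaches 4692 CPM in cluster 2 and Pi16 reaches 595 CPM in cluster 4.

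The sexes within the heterozygous-labelled library differed in the makeup of the class. Cluster 4 held 24 of the 84 cells with Xist alone and 19 of the 205 cells with Y-linked UMIs alone. Pi16 stood at 312 CPM in Kera-low cells with Xist alone and at 18.4 CPM in those with Y-linked UMIs alone, Clec3b at 728 and 100.3 CPM, and Igfbp6 at 444 and 170 CPM. The low-over-high ratio of Igfbp6 was 6.77 (5.38 to 8.60) among cells with Xist alone and 2.20 (1.93 to 2.52) among cells with Y-linked UMIs alone. For Mmp3 the ratio was 12.2 and 29.4 and for Sfrp2 15.0 and 10.3, so the markers stayed higher in Kera-low cells of both. Which mouse a cell came from was not given, so mouse and sex cannot be told apart.

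Between the libraries, the Kera-low cells differed in about as many genes as the Kera-high cells did. Of 7177 genes with 20 CPM in either library, 506 (7.05%) were called higher in heterozygous-labelled Kera-low cells than in wild-type ones and 504 (7.02%) lower. In Kera-high cells 584 of 6942 (8.41%) were higher and 599 (8.63%) lower. The median log2 ratio over all genes was -0.14 in Kera-low cells and 0.10 with edgeR TMM factors, a shift of the whole scale. With those factors 736 were higher and 271 lower (73.1% higher, against 50.1%), with DESeq2 factors 733 and 273, and without Gm42418 and AY036118 in the totals 432 and 700 (38.2%). Without the highest cell of each gene 654 were higher and 332 lower (66.3%). The balance of higher and lower genes therefore depends on the scaling and on the highest cell of each gene. Among the epithelial cells that the keratin limit took, the heterozygous-labelled library had higher Pax6 and lower Krt12, as given above. Each direction below is that of the libraries as labelled.

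The label markers differed between the libraries in both directions. The Kera-low cells of the libraries also lay largely in different clusters, since 53 of the 89 wild-type cells were in cluster 6, with 9 heterozygous-labelled cells, and 85 heterozygous-labelled cells were in cluster 0, with 1 wild-type cell. The clusters were made without correction for library, and cluster 6 was led in part by epithelial transcripts. Library and cell makeup therefore cannot be told apart in this division, and its part in the differences was not tested. Penk stood at 1374 CPM in heterozygous-labelled and 470 CPM in wild-type Kera-low cells, a ratio of 2.93 (2.57 to 3.35), and Igfbp6 at 227 and 1202 CPM, a ratio of 0.189 (0.170 to 0.210). Mmp3 measured 2654 against 4895 CPM, a ratio of 0.542 (0.519 to 0.567), and Sfrp2 788 against 434 CPM, a ratio of 1.82 (1.58 to 2.09). The log2 ratio of Sfrp2 was 0.86 and became 1.49 without the highest cell of each library. Taking the heterozygous-labelled cells with Xist alone, the log2 ratio was 2.01 for Penk, -1.44 for Igfbp6, -0.74 for Mmp3 and 1.54 for Sfrp2, and with cells of Y-linked UMIs alone 1.32, -2.82, -0.94 and 0.56. Each of the 4 thus kept its direction in both sets of cells.

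A minority of collagens, Col1a1 and Col1a2 among them, were higher in the heterozygous-labelled library in both stromal classes. Of 24 measured collagens 7 were higher and none lower in Kera-low cells, and of 21 in Kera-high cells 8 were higher and none lower. Beside each list counted here, 7.05% of all genes were higher and 7.02% lower in Kera-low cells. In Kera-high cells these shares were 8.41% and 8.63%. Without Gm42418 and AY036118 in the totals 7 were higher and 1 lower in Kera-low cells. Col1a1 stood at 25509 CPM in heterozygous-labelled and 6736 CPM in wild-type Kera-low cells, a ratio of 3.79 (3.66 to 3.92). Col1a2 measured 18941 against 7739 CPM, a ratio of 2.45 (2.37 to 2.53). Of 28 other matrix and matricellular genes 3 were higher (Tnc, Sparc and Has1) and 4 lower (Thbs3, Ccn3, Ccn5 and Smoc1) in heterozygous-labelled Kera-low cells, with a median log2 ratio of -0.20, and of 9 small leucine-rich proteoglycans none was higher and 2, Ecm2 and Epyc, were lower. Sparc, a collagen-binding glycoprotein, stood at 27590 and 13461 CPM, a log2 ratio of 1.04 that was 0.95 without Gm42418 and AY036118 in the totals. Mgp stood at 13320 and 3986 CPM. The log2 ratio of Col1a1 was 1.92 with heterozygous-labelled cells of Xist alone and 1.91 with those of Y-linked UMIs alone. Of the immediate early and dissociation stress list 7 of 22 genes were higher and none lower. Btg2 measured 3240 against 568 CPM, a ratio of 5.70 (5.07 to 6.43), and the heat shock gene Hspa1a 403 against 57.2 CPM, a ratio of 7.04 (4.88 to 10.6). The part of dissociation in the other differences was not tested.

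The 12 highest ratios between the libraries were mostly of genes with few UMIs in wild-type Kera-low cells. Hebp1, a haem-binding protein, stood at 112 CPM in heterozygous-labelled and 3.95 CPM in wild-type Kera-low cells, a ratio of 28.4 (7.82 to 235), with 2 wild-type UMIs. Tac1, which led cluster 0, measured 149 against 5.92 CPM, a ratio of 25.2 (8.59 to 123), and Dlk1, an imprinted relative of Notch ligands, 96.5 against 3.95 CPM, a ratio of 24.5 (6.72 to 203). In Kera-high cells the 3 stood at 143, 185 and 93.8 CPM in the heterozygous-labelled library, against 13.7, 4.36 and 17.3 CPM in the wild-type library. The complement proteases C1rb and C1s2 and the membrane protein gene Pianp stood at 70.1, 52.4 and 60.1 CPM in heterozygous-labelled Kera-low cells and had no UMI in wild-type ones, which is at least 11.8-fold, 8.85-fold and 10.1-fold higher against a floor of 3 UMIs over the class. Apoe, which carries lipids, measured 1941 against 207 CPM, a ratio of 9.37 (7.73 to 11.5), with a UMI in 89.2% and 53.9% of the cells. Slfn5, Hist1h1c, Whrn, Crispld1 and Shroom4 completed the 12 highest, with ratios of 13.5, 12.1, 9.14, 9.05 and 8.98. Without the highest cell of each library the log2 ratio was 5.80 in place of 4.83 for Hebp1, 5.37 in place of 4.61 for Dlk1 and 3.84 in place of 3.18 for Crispld1.

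The lowest ratios were mostly of epithelial transcripts. Krt12, a keratin of corneal epithelial cells, reached 8.98 CPM in heterozygous-labelled and 1050 CPM in wild-type Kera-low cells, a ratio of 0.00856 (0.00590 to 0.0121), with a UMI in 9.62% and 97.8% of the cells. It was also far apart in other cells that should lack it, at 17.8 and 978 CPM in Kera-high cells, 50.1 and 1538 CPM in mural cells and 11.4 and 1224 CPM in vessel cells. Slurp1, with no UMI against 73.0 CPM (at most 0.0105 of the wild-type level by the floor of 3 UMIs), Aqp5 at 1.80 and 118 CPM, Lypd2 at 1.80 and 118 CPM and the desmosome gene Dsp at 5.65 and 103 CPM were also among the 12 lowest, with Upk3bl, Dsc3, Mal and Anxa8. All 5 genes of the epithelial list that reached 20 CPM (Krt12, Krt6a, Perp, Dsp and Aqp5) were lower in both stromal classes of the heterozygous-labelled library than of the wild-type one. Krt12 also stood at 14.4 and 2043 CPM in Schwann cells and at 9.88 and 3243 CPM in immune cells, so its wild-type level differed among these cell types. The part of transcripts from outside the cell in its value was not tested. Ryr3 and Coch differed from Krt12 in that wild-type Kera-high cells held little of them. Ryr3, a calcium release channel, stood at 0.770 CPM in heterozygous-labelled and 178 CPM in wild-type Kera-low cells, a ratio of 0.00434 (0.000878 to 0.0131), and at 1.27 and 3.98 CPM in Kera-high cells. Coch, cochlin, a matrix protein of the inner ear and trabecular meshwork, measured 31.6 against 341 CPM, a ratio of 0.0925 (0.0728 to 0.117), and 3.57 against 21.4 CPM in Kera-high cells. A Ryr3 UMI was present in 0.875% of heterozygous-labelled and 34.8% of wild-type Kera-low cells. Ooep stood at 1.54 and 84.8 CPM, with 44.2% of the wild-type UMIs from 1 cell.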

How the data were processed

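The authors deposited 1 matrix of UMI counts per library, made from 10x Genomics single-cell libraries with Cell Ranger 8.0.0 per the file headers and with genome build GRCm38 per the submitters' processing notes. How barcodes were selected before deposit is not given in the sources used here. From these deposited counts, barcodes were dropped below 500 genes, below 1000 UMIs or above 20% mitochondrial UMIs, and doublets were left in, with the 5% of cells of highest Scrublet score removed in an alternative. UMIs were summed over the cells of a class and divided by the class total without mitochondrial genes, which gives CPM. Ratios carry exact conditional binomial 95% intervals and shares exact Clopper-Pearson 95% intervals, which cover counting error only. UMIs of a class with none were set to a floor of 3 counts for a bound. Genes need 20 CPM in either class to be measured. With 1 library per genotype no test was run and no p-value is given.

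The genes named first were the 15 highest and 12 lowest by the smaller log2 ratio of the 2 libraries among genes that reached 50 CPM in either class, and the 12 highest and 12 lowest between the libraries, without mitochondrial, ribosomal protein, predicted, rule and sex-linked genes. The cells and the gene lists were chosen with earlier results of these data known, and further genes named as examples of a list were chosen after their values were seen. The epithelial, mural, vessel, Schwann and immune classes were set by marker UMIs per 10000 in the same way. Clusters were made with scanpy 1.11.5 (1500 genes, 15 components, 15 neighbours, resolution 0.6) on Python 3.11.15 with numpy 2.4.6, scipy 1.17.1 and pandas 2.3.3, alternative scaling used edgeR 4.0.16 and DESeq2 1.42.0 in R 4.3.3, and figures were drawn with matplotlib 3.10.9. The ratios and intervals were tested on class sums simulated with counting error alone, so that test does not cover spread among cells or libraries. Alternatives were other scalings, floors of 5 and 50 CPM and none, Kera limits of 5 and 20, at least 100 UMIs of Dcn, Lum and Kera per 10000, a higher UMI minimum, at most 10% mitochondrial UMIs, no cells with markers of another class, cells of 1 sex, the mean over cells and, chosen after seeing the data, totals without Gm42418 and AY036118, each gene without its highest cell, and the cluster resolutions 0.4 and 1.0.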

Additional observations from a re-analysis of the deposited data

Results flagged for a closer look

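For 6 genes the difference between Kera-low and Kera-high cells ran one way in the heterozygous-labelled library and the other way in the wild-type library. They are those of the 11 genes (0.175% of 6290) with opposite calls that reached 50 CPM in a class of each library. The difference was not tested, and each library is 1 sample. Apoe, a lipid carrier, had a log2 ratio of 2.22 in the heterozygous-labelled library, at 1941 CPM in Kera-low and 416 CPM in Kera-high cells, and of -2.16 in the wild-type library, at 207 and 926 CPM. Gpha2, a glycoprotein hormone subunit made by limbal epithelial cells, had 1.38 (102 and 39.3 CPM) and -3.16 (45.4 and 405 CPM), but 1 cell gave 37.7% of the heterozygous-labelled and 60.9% of the wild-type Kera-low UMIs, and without the highest cell of each class the values were 0.79 and -4.47. In epithelial cells Gpha2 stood at 321 CPM in the heterozygous-labelled and 125 CPM in the wild-type library. A Gpha2 UMI was found in 55.7% of wild-type Kera-high cells.

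The other 4 were lower in heterozygous-labelled and higher in wild-type Kera-low cells. Oaf had log2 ratios of -1.08 (116 and 244 CPM) and 1.15 (211 and 94.9 CPM). Ckb, the brain form of creatine kinase, had -1.18 (80.6 and 182 CPM) and 1.16 (107 and 47.6 CPM). Tnfrsf12a, the receptor for TWEAK, had -1.26 (85.0 and 203 CPM) and 2.03 (71.0 and 17.5 CPM). Gas7 had -1.13 (22.8 and 50.1 CPM) and 5.76 (51.3 and 0.949 CPM), with 57.7% of the wild-type Kera-low UMIs from 1 cell, without which the wild-type value was 4.84. In heterozygous-labelled cells with Xist alone the Gas7 value was 1.0485, so the opposite direction was lost there.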

How the results depend on the processing

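No paired analysis was possible because each genotype has 1 library. The number of lower genes depended on the scaling and on the highest cell of each gene. With edgeR TMM factors it was 324 between Kera-low and Kera-high cells of the heterozygous-labelled library and 271 between the libraries, with DESeq2 factors 273 between the libraries, and without the highest cell of each gene 332. The floor set the counts by construction, since it sets which genes are measured. With a floor of 5 CPM 944 genes were higher and 370 lower in heterozygous-labelled Kera-low cells, 1505 and 1130 in wild-type ones, 488 and 162 in both and 1160 and 1342 between the libraries. With 50 CPM the pairs were 229 and 127, 359 and 268, 128 and 55, and 265 and 209. With no floor they were 4339 and 2922, 2839 and 5031, 1190 and 1103, and 5648 and 2456. Heterozygous-labelled Kera-low cells were 34.3% of stromal cells with a Kera limit of 5, and 42.2% of stromal and 4.01% of kept cells with a limit of 20. Among cells with Xist alone they were 46.4% and 1.91%, with 345 genes lower in the heterozygous-labelled library and 136 in both, and among cells with Y-linked UMIs alone 34.0% and 5.45%. Gas7 turned to a log2 ratio of 1.0485 between the classes and of 0.057 between the libraries with cells of Xist alone, and Ednrb between the libraries to -0.36 without its highest cell. The cause was not tested. Of the other named gene ratios under an alternative, 588 moved by more than their interval and 2124 did not in the heterozygous-labelled library, against 154 and 2146 in the wild-type library and 341 and 2381 between the libraries. The 89 wild-type Kera-low cells and their median depth of 5936 UMIs limit the precision of every wild-type ratio.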

Other observations

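Contractile and detoxification genes were not described above. Between the classes, 6.59% of all genes were higher and 3.17% lower in heterozygous-labelled Kera-low cells, and 9.42% and 6.94% in wild-type ones. Of the myofibroblast list 5 of 9 measured genes were higher and 1 lower in heterozygous-labelled Kera-low cells, and 6 of 9 higher and 1 lower in wild-type ones, with Cthrc1 lower in both. Acta2, smooth muscle actin, stood at 38.2 CPM in Kera-low and 12.4 CPM in Kera-high cells of the heterozygous-labelled library and at 21.7 and 1.33 CPM in the wild-type library, with a UMI in 16.3% and 4.49% of Kera-low cells. Of the antioxidant list 5 of 19 genes were higher and 1 lower in heterozygous-labelled than in wild-type Kera-low cells, beside 7.05% and 7.02% of all genes. Hmox1, which breaks down haem, stood at 203 and 37.5 CPM in these Kera-low cells, a ratio of 5.41 (3.44 to 9.03), and at 159 and 6.07 CPM in Kera-high cells. Of the complement and coagulation list 2 of 15 genes were higher and 1 lower in heterozygous-labelled Kera-low cells, and 5 of 14 higher and 2 lower in wild-type ones.

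Of the 12 highest genes between the libraries, 5 lie on chromosome 6, and 3 of these, C1rb, C1s2 and Pianp, lie between 124570294 and 125003096 (GRCm38). In Kera-high cells they stood at 55.9, 55.4 and 50.9 CPM in the heterozygous-labelled library, against 0.569, 0.190 and 0.379 CPM in the wild-type library. Hebp1 (135137522 to 135198022) and Tac1 (7554879 to 7565834) lie elsewhere on that chromosome. Chromosome 6 as a whole had 25 of 351 measured genes higher (7.12%), near the 7.05% of all genes.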
